A study of Mus musculus with 9 samples.

Results

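The stem cell factor receptor gene Kit and 9 genes of the transcription factors that set or maintain mast cell identity (Mitf, Gata1, Gata2, Tal1, Runx1, Spi1, Stat5a, Stat5b and Cebpa) were examined in mouse bone marrow-derived mast cells (BMMCs). The 10 genes were taken by symbol, without use of their measured values, from the 47643 genes of the count matrix. Earlier results of these data were known when they were chosen. All 10 were among the 11560 genes abundant enough to be tested. Bone marrow of C57BL/6 mice had been grown for several weeks in medium conditioned by WEHI-3 cells, a source of IL-3, so every group consisted of IL-3-dependent cultures. RNA was sequenced in 9 libraries. Control comprised 3 libraries of unstimulated BMMCs, IgE+BSA comprised 3 libraries of BMMCs stimulated through IgE with the DNP-BSA antigen, and IgE+BSA+Luteolin comprised 3 libraries of stimulated BMMCs that also received the plant flavone luteolin, at 10 µM for 24 h according to the labels. The study calls Control cells untreated, without saying whether they received IgE, and it describes luteolin as given before the antigen in a part of its text and after it elsewhere, so the order is not clear. The sources used here do not give the age of the mice or the number of mice behind a library. Nothing in the labels says that replicates came from separate animals or cultures, so p-values measure only the spread between these samples, which may be technical.

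KIT is a receptor tyrosine kinase that binds stem cell factor and, with the IL-3 receptor, carries survival and growth signals to mast cells, in part through STAT5A and STAT5B. GATA2 and MITF drive mast cell genes, including Kit and the granule proteases, while GATA1, TAL1 and RUNX1 act in overlapping complexes during blood cell differentiation. PU.1 (encoded by Spi1) and C/EBPα (encoded by Cebpa) promote myeloid fates, and C/EBPα is kept low in mast cells, where it would favour the basophil or granulocyte path.

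Libraries held 9515004 to 24605689 counts on genes, the lowest being Control replicate 2, and levels are given as counts per 1000000 counts (CPM) after TMM scaling. All 15 mast cell markers were above the filter in these cultures, and together they made up 62454 to 95821 CPM per library, with the carboxypeptidase gene Cpa3 the most abundant. Control replicates 2 and 3 stood apart from the other 7 libraries. The 8 neutrophil markers summed to 7.47 and 5.90 CPM in them, against 270.3 CPM in Control replicate 1 and 193 to 261 CPM in the 6 stimulated libraries. Mcpt8, a basophil protease gene, was at 21.8 and 18.7 CPM in Control replicates 2 and 3 and at 432 CPM in replicate 1. The other basophil markers did not show this gap, with Prss34 at 652, 612 and 760 CPM and Itga2 at 1.55, 1.73 and 0.877 CPM in replicates 2, 3 and 1, and the 3 together ranged from 632 to 1194 CPM over all libraries. The mast cell chymase gene Mcpt4 was at 202 and 197 CPM in replicates 2 and 3 and at 1755 CPM in replicate 1. The macrophage or monocyte list (led by Adgre1) ranged from 340.2 to 417 CPM, the erythroid or megakaryocyte list (led by Itga2b) from 1819 to 2311 CPM, and the eosinophil list (led by Ccr3) from 24.9 to 56.1 CPM. Control replicates 2 and 3 lay below the other 7 libraries in the mast cell sum (62454 to 62878.5 against 71285 to 95821 CPM). The basophil (632 to 675 against 808 to 1194) and dendritic cell sums (7.14 to 7.57 against 12.9 to 17.3) were likewise lower. Macrophage (340.2 to 351 against 361.5 to 417) and eosinophil sums (24.9 to 35.8 against 41.8 to 56.1) were lower too. The erythroid or megakaryocyte sum did not separate these libraries. Dendritic, B, T and stromal cell lists, led by Itgax, Cd79b, Cd3g and Dcn, reached at most 17.3, 3.49, 0.401 and 1.31 CPM, with Siglech, Ms4a1, Cd3e and Cd8a at 0 counts in every library. Results against Control are therefore given with all Control libraries, without replicate 1, and with replicate 1 alone. In these bulk samples, fewer cells of a type and less RNA per cell cannot be told apart.

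**Figure D1:**
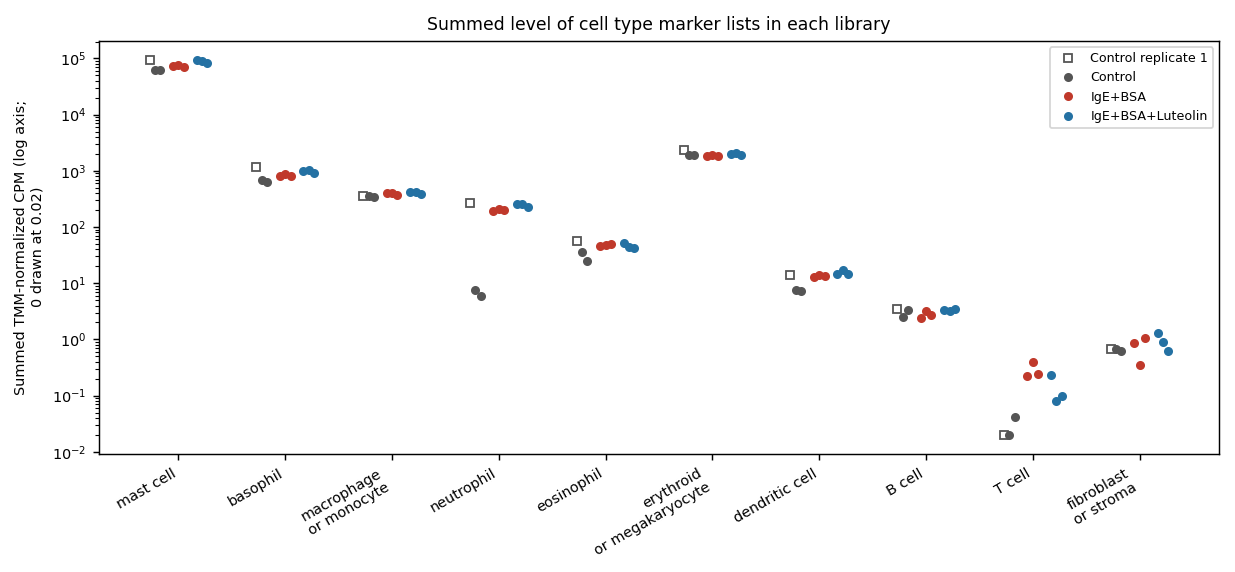
Summed level of each marker list by library (CPM, log axis), with 1 point per library, colours for the groups, an open square for Control replicate 1 and sums of 0 drawn at the bottom. The neutrophil list is at 5.90 to 7.47 CPM in Control replicates 2 and 3 and at 193 to 270.3 CPM in the other 7 libraries.

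Kit and Gata2 were the most abundant of the 10 genes in every group. Per kilobase of exon, the IgE+BSA mean was 257 ± 8.52 CPM (SD, n = 3) for Gata2 and 242 ± 1.68 CPM for Kit, followed by 94.5 ± 4.60 CPM for Tal1. The ranges of Gata2 (248 to 265 CPM per kilobase) and Kit (240.3 to 243.5) did not overlap in IgE+BSA. Gata1 at 48.7 ± 2.90 and Runx1 at 48.4 ± 2.85 CPM per kilobase did overlap, and Spi1 followed at 38.6 ± 1.40. Stat5b at 23.4 ± 0.681 and Mitf at 18.7 ± 1.03 CPM per kilobase stood above Stat5a at 9.43 ± 0.556. Cebpa was the lowest member, at 2.11 ± 0.512 CPM per kilobase. Gata2 and Kit were also highest, followed by Tal1, in the other groups. Runx1 ranked above Spi1 in IgE+BSA and below it in the other groups, at 37.1 ± 7.28 against 43.8 ± 10.3 CPM per kilobase in Control with overlapping ranges and at 30.5 ± 3.58 against 43.6 ± 3.56 with luteolin without overlap. With luteolin, the ranges of Tal1 (60.6 to 66.1) and Gata1 (56.5 to 61.2) overlapped. These levels rest on the union of annotated exons, whatever isoforms the cells use.

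**Figure D2:**
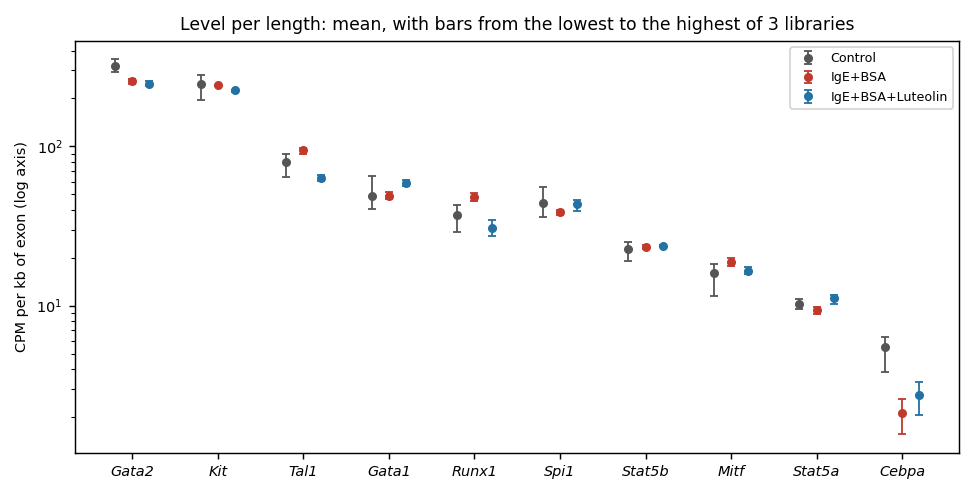
Level per kilobase of exon (CPM per kilobase, log axis) of the 10 genes by group, with points for group means and bars from the lowest to the highest of 3 libraries. Gata2 and Kit lie highest, and Cebpa is lowest, at 2.11 CPM per kilobase on average in IgE+BSA.

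The 10 genes lie on 8 chromosomes of GRCm38, each annotated as protein coding. Kit (ENSMUSG00000005672) spans chromosome 5 from 75574916 to 75656722 on the plus strand, and Gata2 (ENSMUSG00000015053) spans chromosome 6 from 88193891 to 88207032 on the plus strand, on the same chromosome as Mitf (ENSMUSG00000035158, 97807052 to 98021349, plus strand). Tal1 (ENSMUSG00000028717) spans chromosome 4 from 115056426 to 115071755 on the plus strand. Runx1 (ENSMUSG00000022952) spans chromosome 16 from 92601466 to 92826149 on the minus strand. Gata1 (ENSMUSG00000031162) spans chromosome X from 7959260 to 7978071 on the minus strand. Spi1 (ENSMUSG00000002111) lies on chromosome 2 from 91082390 to 91115756, and Cebpa (ENSMUSG00000034957) on chromosome 7 from 35119293 to 35121928, both on the plus strand. Stat5a (ENSMUSG00000004043, 100859351 to 100885169, plus strand) and Stat5b (ENSMUSG00000020919, 100780731 to 100850724, minus strand) are neighbours on chromosome 11. Of the 50-base windows of its exons, 11.0% in Stat5b also occurred in Stat5a, so the split of reads between them is uncertain. In Stat5a, 8.52% of windows also occurred in another gene, most often Stat5b, and Stat5a overlaps Stat3 on the opposite strand by 72 bases. Gene-level counts do not separate the isoforms of Mitf or Runx1. The span of Runx1, introns included, overlaps the antisense gene Gm26626 by 7292 bases. Of the 50-base exon windows of Runx1, 0.47% also occurred in Gm26626, which held 3 to 42 counts per library.

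RefSeq (GRCm38.p6) gave 17 promoter windows, from 250 bases before to 50 after a transcript start, for 9 of the 10 genes, Spi1 not among them. Windows of Tal1 and Runx1, the members that changed most with luteolin, of Gata1, which changed in the other direction, and of Kit are printed here 5′ to 3′ on the gene's own strand. Capitals mark each match, on either strand, to the motifs searched, which were AGATAA and TGATAA for GATA factors, CACGTG and CATGTG for MITF, CAGATG for TAL1, TGTGGT for RUNX factors, GAGGAA for PU.1, TTCNNNGAA for STAT5 and TTGCNNAA for C/EBP factors.
Tal1, chr4:115056176-115056475, plus strand: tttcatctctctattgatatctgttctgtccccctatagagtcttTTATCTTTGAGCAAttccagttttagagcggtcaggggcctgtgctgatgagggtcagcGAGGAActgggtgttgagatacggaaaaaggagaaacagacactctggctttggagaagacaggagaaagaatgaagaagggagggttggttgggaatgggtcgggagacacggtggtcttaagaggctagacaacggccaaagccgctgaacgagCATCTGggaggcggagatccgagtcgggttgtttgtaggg
Runx1, chr16:92826025-92826324, minus strand: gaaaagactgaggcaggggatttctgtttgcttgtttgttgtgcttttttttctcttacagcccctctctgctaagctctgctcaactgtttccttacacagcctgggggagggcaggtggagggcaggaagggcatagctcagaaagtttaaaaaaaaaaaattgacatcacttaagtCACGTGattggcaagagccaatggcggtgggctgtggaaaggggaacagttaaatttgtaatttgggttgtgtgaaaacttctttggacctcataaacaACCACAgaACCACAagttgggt
Gata1, chrX:7967861-7968160, minus strand: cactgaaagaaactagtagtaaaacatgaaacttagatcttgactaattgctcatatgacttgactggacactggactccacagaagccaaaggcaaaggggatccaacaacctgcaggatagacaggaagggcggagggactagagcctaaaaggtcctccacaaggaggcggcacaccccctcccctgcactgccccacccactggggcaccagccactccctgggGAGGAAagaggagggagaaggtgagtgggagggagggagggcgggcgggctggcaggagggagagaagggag
Kit, chr5:75574737-75575036, plus strand: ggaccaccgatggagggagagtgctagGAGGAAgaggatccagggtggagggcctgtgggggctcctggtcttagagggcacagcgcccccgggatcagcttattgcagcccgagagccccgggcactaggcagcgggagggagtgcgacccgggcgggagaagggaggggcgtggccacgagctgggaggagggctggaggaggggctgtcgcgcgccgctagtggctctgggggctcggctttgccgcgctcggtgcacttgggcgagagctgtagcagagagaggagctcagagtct
The Tal1 window held AGATAA on the opposite strand, from -205 to -200 relative to the start at 1, which is found in 11.2% of all 32851 promoter windows. Next to it, from -199 to -192, lay TTGCNNAA (10.8% of windows), and the window also held GAGGAA (28.3%) and CAGATG (17.2%). The Runx1 window held CACGTG from -71 to -66 (7.15% of windows) and TGTGGT on the opposite strand at 29 to 34 and at 37 to 42 (16.8%). Only GAGGAA was found in the Gata1 window and in the Kit window. TTCNNNGAA, present in 8.30% of all windows, was in none of the members' windows. These matches describe the letters of the windows, and binding was not measured.

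Luteolin was compared within stimulated cells, which asks whether the receptor and its lineage factors differ when activated BMMCs receive the compound. Runx1 and Tal1, which act together in blood cell gene programmes, fell by 36.8% and 32.8% with luteolin, while Gata1 was 21.4% higher, and Kit and Gata2 did not pass the test. Of the 10 genes, 6 passed edgeR's quasi-likelihood test with Benjamini-Hochberg adjustment, 3 higher and 3 lower, against 40.0% of all genes tested (18.1% higher, 21.9% lower). The libraries of the groups did not overlap for 6 of the 10, against 50.3% of all genes. The members' median log2 fold change was -0.01 and that of all genes 0.02. The count of 6 fell to 3 without IgE+BSA replicate 3 or without IgE+BSA+Luteolin replicate 2. In the fit of all 9 libraries, only Runx1 and Tal1 passed.

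Runx1, a core regulator of definitive haematopoiesis, was at 581, 549 and 617 CPM in IgE+BSA and at 356, 330.3 and 414 CPM in IgE+BSA+Luteolin. All 3 luteolin libraries lay below all 3 stimulated libraries. Runx1 fell by 0.66 on the log2 scale (SE 0.07, 95% interval -0.82 to -0.51, 0.632-fold, adjusted p = 1.97e-06). Tal1, a basic helix-loop-helix partner of the GATA factors, was at 424.5, 391 and 427 CPM in IgE+BSA and at 265, 277 and 289 CPM with luteolin. The groups were again separate, and Tal1 fell by 0.57 (SE 0.06, interval -0.69 to -0.45, 0.672-fold, adjusted p = 5.13e-07). Both genes passed the test under each of the 15 alternative settings of this comparison. Their values there ran from -0.76 to -0.47 for Runx1 and from -0.62 to -0.46 for Tal1. The -0.47 of Runx1, outside its interval above, came with a correction for gene length. Mitf, the melanocyte and mast cell bHLH-ZIP factor, was at 114.5, 110.1 and 123 CPM in IgE+BSA and at 98.7, 98.3 and 108 CPM with luteolin. The groups did not overlap, although the lowest stimulated library was close to the highest luteolin library. Mitf fell by 0.19 (SE 0.06, interval -0.32 to -0.05, adjusted p = 0.0250), and it passed under 6 of the 15 alternatives. It missed the threshold without IgE+BSA replicate 1 or 3 and without IgE+BSA+Luteolin replicate 1 or 2 (adjusted p from 0.0671 to 0.115).

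Gata1, whose product is best known from erythroid cells, megakaryocytes and mast cells, was at 113.5, 127 and 116 CPM in IgE+BSA and at 144.5, 149 and 138 CPM with luteolin. All luteolin libraries were higher, and Gata1 rose by 0.28 on the log2 scale (SE 0.06, interval 0.15 to 0.41, 1.21-fold, adjusted p = 0.00173), also under 14 of the 15 alternatives. The exception was the fit of all 9 libraries, where the log2 fold change was 0.28 with an adjusted p of 0.347. With a correction for gene length it was 0.17 (adjusted p = 0.0188). Gata2, the factor that precedes Gata1 in the lineage and remains abundant in mast cells, was at 1338, 1428 and 1399 CPM in IgE+BSA and at 1329.5, 1296 and 1386 CPM with luteolin. The groups overlapped and no difference passed the test (log2 fold change -0.05, interval -0.16 to 0.06, adjusted p = 0.454). Per length, Gata2 exceeded Gata1 by 5.09 to 5.45 times in IgE+BSA and by 3.92 to 4.54 times with luteolin, so the ranges of this ratio were separate.

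Kit was at 2142, 2146 and 2169.6 CPM in IgE+BSA and at 1966, 2011 and 2024 CPM with luteolin. The groups did not overlap and were close to each other relative to the level of the gene. The log2 fold change was -0.10 (SE 0.05, interval -0.20 to -0.00094, adjusted p = 0.0987), which missed the threshold. DESeq2 gave the same fold change with an adjusted p of 0.0484. Scaling by library size alone turned the value to 0.01, and that scaling also moved the median of all genes to 0.13, so that Kit was at -0.12 relative to it. A correction for gene length also turned the value, to 0.02 (adjusted p = 0.725).

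Stat5a, a transducer of KIT and IL-3 receptor signals, was at 70.2, 68.8 and 62.7 CPM in IgE+BSA and at 72.7, 83.2 and 81.1 CPM with luteolin. The luteolin libraries were all higher, by a narrow gap, and Stat5a rose by 0.24 (SE 0.07, interval 0.09 to 0.38, 1.18-fold, adjusted p = 0.0129). Without IgE+BSA replicate 3 or IgE+BSA+Luteolin replicate 2 the adjusted p was 0.0607 or 0.0827, and in the fit of all 9 libraries it was 0.175. Its paralog Stat5b was at 126, 133 and 129.6 CPM in IgE+BSA and at 133, 129.8 and 132 CPM with luteolin, and these overlapped (log2 fold change 0.03, interval -0.09 to 0.14, adjusted p = 0.703). Per length, Stat5b exceeded Stat5a by 2.30 to 2.66 times in IgE+BSA and by 2.01 to 2.36 times with luteolin, and these ranges overlapped.

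Spi1 was at 104.8, 107 and 100.0 CPM in IgE+BSA and at 122, 124 and 106 CPM with luteolin. The third luteolin library lay within the stimulated range, so the groups overlapped. Spi1 rose by 0.18 (SE 0.07, interval 0.04 to 0.32, 1.13-fold, adjusted p = 0.0402), but with a correction for gene length the log2 fold change was 0.07 with an adjusted p of 0.327. Without IgE+BSA replicate 1 or 3, or IgE+BSA+Luteolin replicate 1 or 2, the adjusted p was 0.104 to 0.199, and in the fit of all 9 libraries it was 0.496. Cebpa was at 4.12, 5.81 and 6.79 CPM in IgE+BSA and at 8.68, 7.58 and 5.37 CPM with luteolin, on 346 and 484 counts in all. The groups overlapped, and the difference missed the threshold (log2 fold change 0.38, interval -0.06 to 0.82, adjusted p = 0.157). Without IgE+BSA+Luteolin replicate 3 the value was 0.55 with an adjusted p of 0.0338. Spi1 and Cebpa are also active in neutrophil precursors, and the neutrophil markers summed to 193 to 213 CPM in IgE+BSA and to 223 to 261 CPM with luteolin. Of these 8 markers, S100a8 (log2 fold change 0.43, adjusted p = 0.00236) and S100a9 (0.32, adjusted p = 0.00164) rose and 6 did not pass. The share of all genes tested that rose was 18.1%. Of the 3 basophil markers, Mcpt8 (0.21) and Prss34 (0.24) rose. Their part in the member values was not tested.

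**Figure D3:**
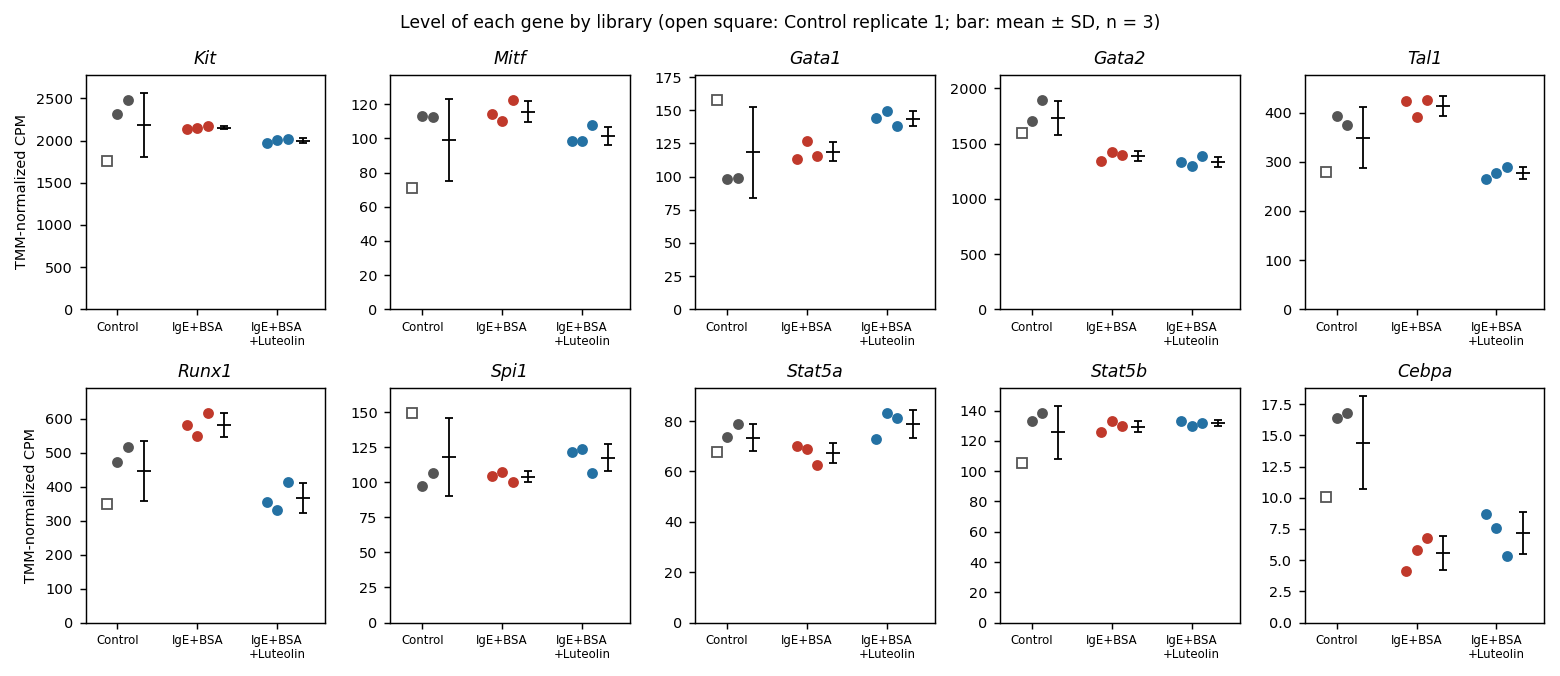
Level of each of the 10 genes (CPM) by library, each panel with its own axis from 0, with circles for libraries, an open square for Control replicate 1 and bars for the mean ± SD (n = 3). For Runx1 and Tal1 all 3 luteolin libraries lie below the stimulated ones, and Control replicate 1 lies apart from the other Control libraries for several genes.

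**Figure D4:**
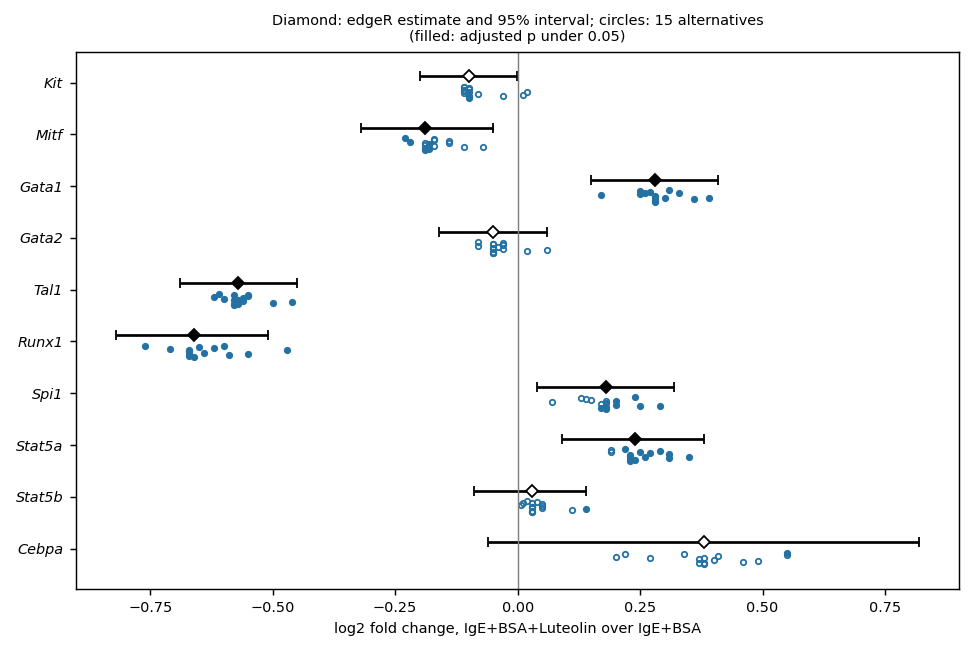
Log2 fold change of each gene in IgE+BSA+Luteolin against IgE+BSA (diamond, with 95% interval) and under the 15 alternatives (circles), filled where the adjusted p was under 0.05. Runx1 (-0.66) and Tal1 (-0.57) lie lowest, and the intervals of Gata2, Stat5b and Cebpa include 0.

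The mast cell markers moved in both directions in the same comparison, with 7 of 15 higher, 4 lower and 4 not passing the test, against 18.1% higher and 21.9% lower among all genes. Genes of the granule proteases and the IgE receptor were among the higher ones, with log2 fold changes of 0.36 for Cpa3, 0.32 for the tryptase gene Tpsb2, 0.35 for the chymase gene Cma1, 0.42 for Mcpt4, 0.42 for Fcer1a, 0.30 for Ms4a2 and 0.29 for Fcer1g. Hdc, which makes histamine, fell by 1.16, Tpsab1 fell by 1.32, the granule traffic gene Rab27b fell by 0.50 and the prostaglandin D synthase gene Hpgds fell by 0.22. Srgn (0.03), Slc18a2 (0.04), Il1rl1 (-0.09) and Gzmb (0.05) did not pass. Among eosinophil markers, Siglecf fell by 1.07 (adjusted p = 0.000118), and no marker of the macrophage or erythroid lists passed.

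Genes around the members were read from fixed lists. The share of all genes tested that passed in this comparison, 18.1% higher and 21.9% lower, is the background for each count. Of 21 tested genes of KIT signaling, 3 rose and 7 fell with luteolin (median -0.06), 10 in all against 40.0% of all genes. The adaptor Grb2 (0.25, adjusted p = 0.00275), the kinase Btk (0.17) and the phospholipase Plcg1 (0.14) rose. Sh2b3, a negative regulator of cytokine receptor kinases, fell by 0.56 (adjusted p = 4.92e-06), from 82.0 ± 2.24 to 55.5 ± 3.93 CPM. Dok1, also an inhibitory adaptor, fell by 0.46, and Gab2, an adaptor that carries the signal to PI3 kinase, fell by 0.43. The gene of the KIT ligand, Kitl, was below the filter, with at most 3 counts in a group.

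Of 27 tested partners and relatives of the lineage factors, 3 rose and 11 fell with luteolin (median -0.21), against 18.1% and 21.9% of all genes. Lyl1, the closest relative of Tal1, rose by 0.53 (adjusted p = 0.000118), from 43.3 ± 5.33 to 62.4 ± 3.71 CPM, in the direction away from Tal1. The repressor gene Gfi1b rose by 0.29 and Myb by 0.19. Ets1, of the same ETS family as Spi1, fell by 0.69 (adjusted p = 5.97e-06). Cbfa2t3, a corepressor found in TAL1 complexes, fell by 0.55 and Tcf12, an E-protein that pairs with TAL1, fell by 0.38.

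Of 12 tested genes of the IL-3 receptor, JAK and STAT list, 4 fell with luteolin (median -0.10), against 21.9% of all genes. Jak1 fell by 0.34 (adjusted p = 0.000235), the shared receptor chain Csf2rb by 0.23 and Stat3 by 0.19, and Csf2rb2, a close paralog of Csf2rb, was also lower. Of 8 genes known to respond to STAT5, 4 fell and 1 rose (median -0.18), against 21.9% and 18.1% of all genes. Cish was at 629.5, 617 and 672 CPM in IgE+BSA and at 289, 305 and 342 CPM with luteolin, with no overlap. It fell by 1.03 (SE 0.06, adjusted p = 1e-09). Socs3, which also responds to other STATs, fell by 1.86 (adjusted p = 1.13e-11) and the cytokine gene Osm by 1.75 (adjusted p = 3.28e-12). Pim2 rose by 0.34, and Socs1, Socs2 and Bcl2l1 did not pass (0.02, -0.19 and 0.15).

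The comparison of IgE+BSA with Control asks what antigen stimulation alone changed. Cebpa was lower after stimulation, and no other member passed edgeR's test, which makes 1 of 10 against 3.27% of all genes (2.25% higher, 1.02% lower), while DESeq2 called 2 members, Cebpa and Gata2. Groups did not overlap for 3 of the 10 (Cebpa, Gata2 and Runx1), against 28.7% of all genes. Cebpa was at 10.1, 16.4 and 16.8 CPM in Control and at 4.12, 5.81 and 6.79 CPM in IgE+BSA. Every stimulated library was below every Control library, also below Control replicate 1. Cebpa fell by 1.37 on the log2 scale (SE 0.27, interval -1.99 to -0.75, 0.387-fold, adjusted p = 0.0420), but the adjusted p was 0.140 to 0.200 without Control replicate 2 or 3 or without any of the 3 IgE+BSA replicates, and 0.0513 with a correction for gene length.

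Gata2 was at 1593, 1707 and 1898 CPM in Control, above all 3 stimulated libraries, with a log2 fold change of -0.32 by edgeR (interval -0.57 to -0.07, adjusted p = 0.161). DESeq2 called Gata2 lower in this comparison (-0.36, adjusted p = 0.0185). Runx1 was at 348, 474 and 516 CPM in Control, below all stimulated libraries, with a value of 0.39 (interval 0.03 to 0.75, adjusted p = 0.216). Kit was at 1752.5, 2310.4 and 2485 CPM in Control, on both sides of the stimulated libraries (log2 fold change -0.02, interval -0.35 to 0.31, adjusted p = 0.958). Gata1 was at 158, 98.4 and 98.8 CPM, also on both sides (interval -0.48 to 0.48). Tal1 was at 279, 393.5 and 375 CPM in Control, and the second of these lay inside the stimulated range (0.25, adjusted p = 0.382).

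Over the genes tested, Control replicate 1 differed from Control replicates 2 and 3 by chi-squares of 88.17 and 146.43 per degree of freedom. Between replicates 2 and 3 the value was 6.56. Control replicate 1 lay outside the range of the other Control libraries for each of the 10 genes. How often it did so among all genes was not counted. Against the mean of the other Control libraries it held 1.60 times the Gata1 level and 1.46 times the Spi1 level, but 0.611 times the Cebpa, 0.630 times the Mitf, 0.703 times the Runx1, 0.727 times the Tal1 and 0.731 times the Kit level. Gata2 exceeded Gata1 per length by 4.55 times in Control replicate 1 and by 7.83 and 8.67 times in replicates 2 and 3. Control replicate 1 is also the Control library whose neutrophil marker sum (270.3 CPM) and Mcpt8 level (432 CPM) were nearest to those of the stimulated libraries (193 to 261 and 293 to 369 CPM). The part of those cells in the member values was not tested.

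With Control replicates 2 and 3 alone, 5 of the 10 genes passed, 1 higher and 4 lower, against 45.0% of all genes (22.6% higher, 22.4% lower). Kit (-0.20, adjusted p = 0.0235), Stat5a (-0.23, adjusted p = 0.0252), Gata2 (-0.43, adjusted p = 0.000286) and Cebpa (-1.63, adjusted p = 8.01e-06) were lower after stimulation, and Gata1 (0.22, adjusted p = 0.0229) was higher. With Control replicate 1 alone, whose spread is then assumed to equal that of the stimulated libraries, 9 of 10 passed, 5 higher and 4 lower, against 42.3% of all genes (23.1% higher, 19.2% lower). Runx1 (0.72), Mitf (0.68), Tal1 (0.55), Kit (0.28) and Stat5b (0.27) were then higher after stimulation, and Cebpa (-0.89), Spi1 (-0.54), Gata1 (-0.43) and Gata2 (-0.22) were lower. Cebpa and Gata2 were lower and passed the test with either choice of Control, whereas Kit and Gata1 passed in opposite directions.

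**Figure D5:**
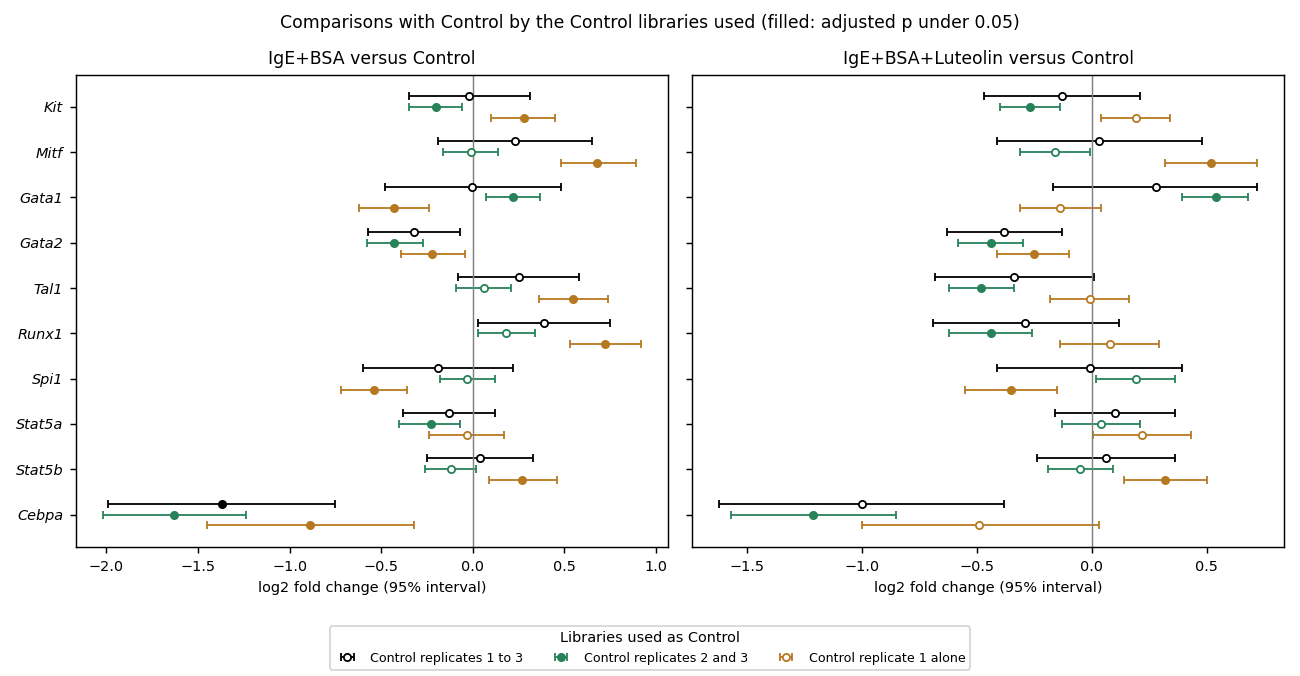
Log2 fold change with 95% interval of the 10 genes in IgE+BSA (left) and IgE+BSA+Luteolin (right) against Control, by the Control libraries used, filled where the adjusted p was under 0.05. For Kit in IgE+BSA the value is -0.02 with all Control libraries, -0.20 without replicate 1 and 0.28 with replicate 1 alone.

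Among the lists, 0 of 21 KIT signaling genes passed edgeR's test between IgE+BSA and Control (2 at an unadjusted p under 0.05, 0 by DESeq2 and 0 by limma), and 0 of 12 genes of the IL-3 receptor list did (1 unadjusted, 1 by DESeq2, 0 by limma). The mast cell markers gave 0 of 15 (2 unadjusted, 1 by DESeq2, 1 by limma). Of all genes tested, 3.27% passed edgeR's test here (2.25% higher, 1.02% lower), which is the background for each list. Of the 27 partners, Ets1 rose by 0.67 (adjusted p = 0.0364), while Gfi1b (-0.76), Gfi1 (-1.33) and Lyl1 (-0.87) were lower. Of the 8 STAT5-responsive genes, Cish rose by 1.03 (adjusted p = 0.00884), from 312 ± 42.5 to 639.5 ± 29.1 CPM, and Socs3 by 1.17 (adjusted p = 0.0402). These 6 genes kept direction and call with either choice of Control, Cish at 1.08 and 0.84, and Socs3 at 1.34 and 0.77.

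The list counts against Control moved with the Control libraries, as did those of all genes. Without Control replicate 1, 3 KIT signaling genes were higher and 6 lower, 8 partners were higher and 8 lower, and in the IL-3 receptor list 1 was higher and 4 lower, against 22.6% higher and 22.4% lower among all genes. STAT5-responsive genes then gave 4 higher and 0 lower, and mast cell markers 7 higher and 2 lower. With Control replicate 1 alone, 8 KIT signaling genes were higher and 2 lower, 9 partners were higher and 3 lower, and in the IL-3 receptor list 3 were higher and 2 lower, against 23.1% and 19.2% of all genes. STAT5-responsive genes then gave 4 higher and 2 lower, and mast cell markers 5 higher and 7 lower.

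Between IgE+BSA+Luteolin and Control, which asks whether treated stimulated cells still differ from unstimulated ones, 0 of the 10 genes passed edgeR's test, against 3.04% of all genes (0.285% higher, 2.75% lower). At an unadjusted p under 0.05 there were 2, and DESeq2 called 2 and limma 0. Gata2 (log2 fold change -0.38, interval -0.63 to -0.13, adjusted p = 0.107) and Cebpa (0.499-fold, log2 interval -1.62 to -0.38, adjusted p = 0.0921) were the 2 whose groups did not overlap, against 28.5% of all genes. Kit was at -0.13 (interval -0.47 to 0.21), Tal1 at -0.34 (-0.68 to 0.0077), Runx1 at -0.29 (-0.69 to 0.12) and Gata1 at 0.28 (-0.17 to 0.72). Spi1, Mitf, Stat5a and Stat5b lay between -0.01 and 0.10.

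Without Control replicate 1, 6 of the 10 passed, 1 higher and 5 lower, against 60.0% of all genes (29.9% higher, 30.1% lower). Tal1 (-0.48, adjusted p = 1.3e-05), Runx1 (-0.44, adjusted p = 0.000254), Gata2 (-0.44, adjusted p = 2.56e-05), Kit (-0.27, adjusted p = 0.00122) and Cebpa (-1.21, adjusted p = 1.33e-05) were lower with luteolin than in those Control libraries, and Gata1 (0.54, adjusted p = 5.56e-06) was higher. With Control replicate 1 alone, 4 passed against 21.2% of all genes (11.6% higher, 9.55% lower), namely Mitf (0.52) and Stat5b (0.32) higher and Spi1 (-0.35) and Gata2 (-0.25) lower. Tal1 (-0.01, interval -0.18 to 0.16) and Runx1 (0.08, interval -0.14 to 0.29) did not pass there. Gata2 was the member that passed, and was lower, with either choice of Control.

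In this comparison 0 of 21 KIT signaling genes passed edgeR's test (4 unadjusted, 2 by DESeq2, 0 by limma), 0 of 12 IL-3 receptor genes (2 unadjusted, 0 by DESeq2, 0 by limma) and 0 of 8 STAT5-responsive genes (1 unadjusted, 0 by DESeq2, 0 by limma). Gfi1, a repressor related to Gfi1b, was the 1 of 27 partners that passed, at -1.04 (adjusted p = 0.0450). Of the 15 mast cell markers, Tpsab1 passed and was lower (-1.49, adjusted p = 0.0208). With all Control libraries, 3.04% of all genes tested passed (0.285% higher, 2.75% lower), which is the background for these lists. Without Control replicate 1, 4 KIT signaling genes were higher and 9 lower, 5 partners higher and 14 lower, 3 STAT5-responsive genes higher and 1 lower, and 11 mast cell markers higher and 2 lower, against 29.9% and 30.1% of all genes, and in the IL-3 receptor list 1 was higher and 6 lower. With Control replicate 1 alone, 4 KIT signaling genes were higher and 1 lower, 3 partners higher and 5 lower, 0 STAT5-responsive genes higher and 4 lower, and 3 mast cell markers higher and 4 lower, against 11.6% and 9.55% of all genes, and in the IL-3 receptor list 2 were higher and 0 lower. Gfi1 (-1.11 and -0.93) and Tpsab1 (-1.72 and -0.88) were lower and passed with either choice of Control. Cish was at 312 ± 27.5 CPM with luteolin and at 312 ± 42.5 CPM in Control. The comparisons with Control share the same Control libraries, and those with IgE+BSA share the stimulated libraries, so they are not independent of each other.

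The genes whose log2 level followed Kit most closely over the 9 libraries were Svil (r = 0.988), Utrn (0.986), Rgl1 (0.985), Crim1 (0.984) and Gm4759 (0.983). These are descriptions over libraries that share a group or a culture, and each of these genes, like Kit, was lowest in Control replicate 1 and highest in Control replicate 3. Among the members, Mitf (r = 0.81), Stat5b (0.77), Tal1 (0.70) and Runx1 (0.67) followed Kit most closely, and Gata1 (-0.93) and Spi1 (-0.82) ran against it. Among all genes tested, Mitf ranked only 1196, Stat5b 1520, Tal1 2015 and Runx1 2286 by correlation with Kit.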

How the data were processed

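Per the labels, stranded libraries were made from the mRNA of BMMCs. The authors cleaned the reads with HTStream and aligned them to mm10 with STAR 2.7.0f. The deposited values are raw counts on Ensembl genes, without a filter or normalization. The strand setting, the annotation release and the treatment of multi-mapping reads are not given in the sources used here. Of 47643 gene IDs, 47224 matched a symbol in GENCODE M21 (GRCm38), which gave coordinates, and 24256 had 0 counts in every library.

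Libraries were grouped by their labels. The software was edgeR 4.0.16, DESeq2 1.42.0 and limma 3.58.1 under R 4.3.3. The filter kept 11560 genes whose median CPM over the 9 libraries exceeded 1. Each comparison was fitted on its own 6 libraries with TMM factors and tested two-sided by the quasi-likelihood test of edgeR, and p-values were adjusted by Benjamini-Hochberg over all genes kept, with a threshold of 0.05. The method was tested on simulated data. Intervals cover 95%. At the depths reached, 3 counts corresponded to 0.122 to 0.291 CPM, a floor that covers counting error only. Replicates of a group differed by a chi-square of at least 4.05 per degree of freedom, so no pair was 1 library deposited in duplicate.

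The members and lists were chosen with earlier results of these data known. The text names all members and mast cell markers, the most abundant and the called genes of other marker lists, up to 3 genes per direction of lowest adjusted p from each pathway list, and the 5 genes most correlated with Kit. The ratios per length, Csf2rb2, Kitl, the STAT5-responsive genes that did not pass, the values of Cish without a call, and markers at 0 or apart in Control were named after their values were seen. The alternatives were another test (DESeq2, limma), other scaling factors, no filter, all libraries in 1 fit, a replicate block, a gene length correction and each replicate left out. A result of the IL-3 receptor, JAK and STAT list is not reported here. The fit with Control replicate 1 alone, and the list counts by choice of Control, were chosen after seeing the data. Promoter windows and motif shares came from RefSeq sequences of GRCm38.p6.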

Additional observations from a re-analysis of the deposited data

How the results depend on the processing

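The luteolin comparison within stimulated cells was the steadier one in its number of called genes with 1 replicate left out. Its 4624 called genes ranged from 3242 to 5082 with 1 replicate left out and fell to 1093 when all 9 libraries were fitted together, and its 6 called members ranged from 3 to 7 and were 2 in that fit. Of the values of single members over the alternatives, 123 kept direction and call, 4 passed newly, 19 no longer passed and 4 turned. Those that turned were Gata2 at 0.02 with upper-quartile factors and 0.06 with library size alone, and Kit at 0.01 with library size alone and 0.02 with a gene length correction. Against Control, with 16 alternatives in place of 15, 127 values kept direction and call for IgE+BSA and 133 for IgE+BSA+Luteolin. There 16 and 12 values turned, and 6 no longer passed for IgE+BSA.

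Against Control, calls depended on the settings. For IgE+BSA, the 378 called genes became 1227 with DESeq2, 618 with no filter, 1105 in the fit of all 9 libraries, 4892 with Control replicate 1 alone and 90 to 5207 with 1 replicate left out. Its 1 called member became 2 with DESeq2, 0 with the gene length correction, 9 with Control replicate 1 alone and 0 to 5 with 1 replicate left out. For IgE+BSA+Luteolin, the 351 called genes became 1379 with DESeq2, 811 with no filter, 1251 in the fit of all 9 libraries, 650 with the gene length correction, 2447 with Control replicate 1 alone and 2 to 6931 with 1 replicate left out. Its 0 called members became 2 with DESeq2, 1 with no filter, 2 in the fit of all 9 libraries, 4 with Control replicate 1 alone and 0 to 6 with 1 replicate left out. With 1 replicate left out, the highest counts came without Control replicate 1. Beyond the libraries named, the cause of these shifts was not tested.

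Directions of several small differences turned. In IgE+BSA against Control, Gata1 (-0.0013) was 0.04 with limma, 0.04 with no filter, 0.0027 in the fit of all 9 libraries, 0.03 with the gene length correction and -0.12 to 0.22 with 1 replicate left out. Kit was 0.04 with no filter, 0.28 with Control replicate 1 alone and -0.20 to 0.08 with 1 replicate left out, and Stat5b was -0.06 with upper-quartile factors, -0.14 with library size alone and -0.12 to 0.12 with 1 replicate left out. Mitf ranged from -0.01 to 0.33. In IgE+BSA+Luteolin against Control, Control replicate 1 alone gave -0.14 for Gata1, 0.19 for Kit and 0.08 for Runx1. Mitf was -0.03 with library size alone and -0.16 to 0.14 with 1 replicate left out, Spi1 was 0.01 with limma, 0.05 with no filter and -0.13 to 0.19, and Stat5b ranged from -0.05 to 0.14. Library size alone moved the median of all genes to 0.13 in the luteolin comparison and to -0.15 in IgE+BSA against Control.

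The groups share replicate numbers, but samples with the same number did not deviate together in every pair (correlations from -0.255 to 0.307). Between IgE+BSA and IgE+BSA+Luteolin, same-number correlations were -0.024, 0.175 and 0.283, and those of other pairs ran from -0.28 to 0.149. With 3 libraries per group, these correlations cannot settle whether the numbers pair samples. With a replicate block, 144 genes were called in IgE+BSA against Control, 212 in IgE+BSA+Luteolin against Control and 5582 with luteolin in stimulated cells, with 1, 0 and 7 members. The added member was Kit, at -0.10 with an adjusted p of 0.0232 by edgeR. The block gave 0.04 for Gata1 in IgE+BSA against Control and 0.0097 for Spi1 in IgE+BSA+Luteolin against Control. Depth limited Cebpa most, which rested on 346 to 784 counts per group.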
